A study of Rattus norvegicus with 9 samples.

Results

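The data described here are the reads counted on 5 microRNA loci of the rat genome in whole-transcriptome libraries of the cerebral cortex. The loci are those of the 29516 Ensembl gene identifiers in the count files that the study's supplementary lists of differentially expressed genes and transcripts call miRNA or microRNA. One of them, ENSRNOG00000035558, carries a name, mir-344a-2. The other 4, ENSRNOG00000044316, ENSRNOG00000045415, ENSRNOG00000044121 and ENSRNOG00000045400, are called miRNA only. These lists hold transcripts that passed a test between ages in the same libraries, so the loci were selected on the authors' own test of read counts between ages. In these lists 4 of them stood for 6 against 12 months, and ENSRNOG00000044121 stood for 6 against 28 months. The values of each locus in the comparison that chose it are therefore given as a description with no test.

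Cortex was taken from male BN rats (substrain BN/SsNOlaHSD), fed without restriction and killed at 6, 12 or 28 months of age with no other treatment. RNA of 2 rats was pooled for each library, with 3 libraries labelled for each age, named p1 to p3 at 6 months, p7 to p9 at 12 months and p4 to p6 at 28 months. After depletion of ribosomal RNA the RNA was fragmented and sequenced on the SOLiD platform, and the authors mapped the reads to the rn4 genome and counted them per gene. The files of p2 (6 months) and p9 (12 months) were identical at every identifier, so there are 8 independent libraries. The library p2 was placed in neither the 6-month nor the 12-month group of the comparisons between 2 ages, and it was used once, as a library younger than 28 months, in the comparison of 28 months with both younger ages.

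MicroRNAs are short RNAs that lead an Argonaute protein to messenger RNAs, most often through pairing of the seed, the bases near the 5′ end of the microRNA, and so lower the output of these messengers. Each is cut from a longer primary transcript, first by Drosha in the nucleus to a hairpin and then by Dicer in the cytoplasm to a duplex, of which one strand is usually kept. In the brain, microRNAs are known for roles in neuronal differentiation and at synapses. The libraries were not made by a small RNA protocol. A read counted on one of these loci can come from the primary transcript, the hairpin, the mature microRNA or any other RNA that overlaps the annotated locus, and the counts do not tell these apart.

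RefSeq sequences could be matched to 1 of the 5 loci, since only mir-344a-2 was paired with an accession. RefSeq places its hairpin, Mir344a-2, on the minus strand at chr1:124655022-124655128 of the GRCr8 assembly, which is a later build than the rn4 genome used for the counts. In the order of named RefSeq genes, a run of 7 Mir344 hairpins lies between Slc25a19l1, next to Snrpn and Snurf, and Ndn, Magel2, Mkrn3 and Peg12. Snrpn, Ndn and Magel2 are known as imprinted genes of the Prader-Willi region. The next hairpin of the run, Mir344-1 (chr1:124718754-124718851, minus strand), is shown beside Mir344a-2 because reads of both copies may have been hard to place. Capitals mark the longest identical run of the 2 hairpins.
Mir344a-2: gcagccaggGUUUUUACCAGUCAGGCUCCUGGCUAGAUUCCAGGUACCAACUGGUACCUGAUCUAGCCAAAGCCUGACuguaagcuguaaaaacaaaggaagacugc
Mir344-1: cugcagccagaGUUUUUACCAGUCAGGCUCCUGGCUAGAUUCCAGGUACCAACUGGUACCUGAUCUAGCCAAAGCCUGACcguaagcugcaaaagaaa

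The identical run was 69 bases long, in hairpins of 107 and 98 bases. Over 96 aligned bases 92 were the same (95.8%). The other 5 hairpins of the family were less alike, with 75.3 to 82.4% identity to Mir344a-2 over their aligned parts. RNAfold gave the Mir344a-2 hairpin 41 base pairs and a minimum free energy of -56.0 kcal per mol, against 35 base pairs and -51.3 kcal per mol for Mir344-1. A read that lies inside the shared run fits both copies equally well. The files record 0 reads as non-unique, and the source text does not say how such reads were placed, so the count of mir-344a-2 is uncertain with respect to its near-identical copy.

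The mature microRNAs of both hairpins are given with the seed, bases 2 to 8, in capitals.
rno-miR-344a-5p: uCAGGCUCcuggcuagauu
rno-miR-344-5p: uCAGGCUCcuggcuagauuccagg
rno-miR-344-3p: uGAUCUAGccaaagccugaccgu

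The 5p products of the 2 hairpins shared 1 seed, and the longer rno-miR-344-5p was found whole in the Mir344a-2 hairpin. Of 693 mature rat names in the RefSeq table, 3 had this seed, and the third was rno-miR-484. The 3p product of Mir344-1 matched the Mir344a-2 hairpin except for C21U, in which the mature microRNA has the first base, the hairpin has the second, and positions are counted from 1 at the 5′ end of the microRNA. The products of the other hairpins had other seeds, as in rno-miR-344b-5p and rno-miR-344g, which share 1 seed with each other but not with rno-miR-344a-5p.
rno-miR-344b-5p: aGUCAGGCugcugguuauauuc
rno-miR-344g: aGUCAGGCuccuggcaggaguc

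Between 6513376 and 9196951 reads were counted on genes in each library. Of these, 44.0 to 52.4% lay on 1 abundant identifier, ENSRNOG00000043866. The libraries p1, p3 and p4 had 9196951, 8700946 and 8648997 gene reads and stood apart from the other 5, which had 6513376 to 7310231. These are 2 libraries of 6 months and 1 of 28 months, and no library of 12 months was among them. The marker genes of cortical cell types given here were detected in every library, with 73.4 to 175 normalized counts (CPM) for Nptxr of neurons, 52.5 to 155 for Gfap of astrocytes, 2.48 to 8.97 for Aif1 of microglia and 17.2 to 64.8 for LOC689064, a haemoglobin chain of red blood cells. Alb of plasma was lowest, at 0.327 to 7.12, while Arc (15.9 to 61.7) and Egr3 (3.91 to 12.5), both activity-dependent genes of neurons, lay between. The part of cell composition in the results below was not tested, and in such bulk RNA fewer cells of a type and less RNA per cell cannot be told apart.

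ENSRNOG00000044316 had from 47041 to 128466 reads per library, which was 0.541 to 1.97% of all gene reads. Its normalized counts were 7876 in p1 and 5395 in p3 at 6 months, 16569 in p7 and 16782 in p8 at 12 months, and 6775 in p4, 17735 in p5 and 11072 in p6 at 28 months, with 13330 in the library deposited under both younger ages. Both 12-month libraries lay above both 6-month libraries, while the 28-month libraries covered nearly the whole range, with p4 between the 6-month libraries and p5 above all others. The comparison of 6 with 12 months had chosen this locus, and the share of all genes that separate in this way was not counted.

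ENSRNOG00000045415 had from 8624 to 25484 reads per library, or 0.0991 to 0.391% of the gene reads. Its normalized counts were 1190 in p1 and 989 in p3, 2296 in p7 and 2237 in p8, and 1246 in p4, 3518 in p5 and 2323 in p6, with 1811 in p2. Here too the 12-month libraries lay above the 6-month libraries, in the comparison that had chosen the locus. The lowest 28-month library, p4 at 1246, was close to p1 at 1190. The share of all genes whose libraries separate in such ways was not counted.

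ENSRNOG00000044121 was counted far less deeply, with 179 to 683 reads per library. It had 28.5 normalized counts in p1 and 20.5 in p3, 62.2 in p7 and 54.5 in p8, and 31.8 in p4, 94.3 in p5 and 39.7 in p6, with 35.3 in p2. The order of its libraries was almost that of the former 2 loci, with p3, p1 and p4 lowest and p5 highest.

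ENSRNOG00000045400 had 569 to 1488 reads per library and followed another order. Its normalized counts were 148 in p1 and 80.7 in p3, 126 in p7 and 146 in p8, and 169 in p4, 205 in p5 and 132 in p6, with 79.4 in p2. Its 6-month and 12-month libraries overlapped. Of its 3 libraries of 28 months, 2 lay above all younger ones, while p6 at 132 lay below p1 and p8. How many of all genes show such an order was not counted.

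The fifth locus, mir-344a-2, was at the limit of detection. It had 19 reads in p1, 15 in p3, 2 in p7, 2 in p8, 8 in p4, 6 in p5, 0 in p6 and 7 in p2. These are 2.07 and 1.72 normalized counts at 6 months, 0.285 and 0.275 at 12 months, and 0.991, 0.828 and 0 at 28 months. The highest values were those of 6 months, and the count of 0 in p6 allows up to 0.453 normalized counts, taking 3 reads as the limit. The exact 95% Poisson interval of the 19 reads was 11.4 to 29.7, and that of the 2 reads 0.242 to 7.22. For the 0 reads in p6 it was 0 to 3.69, which reaches above the limit of 3 reads. Such intervals cover counting error only.

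**Figure D1:**
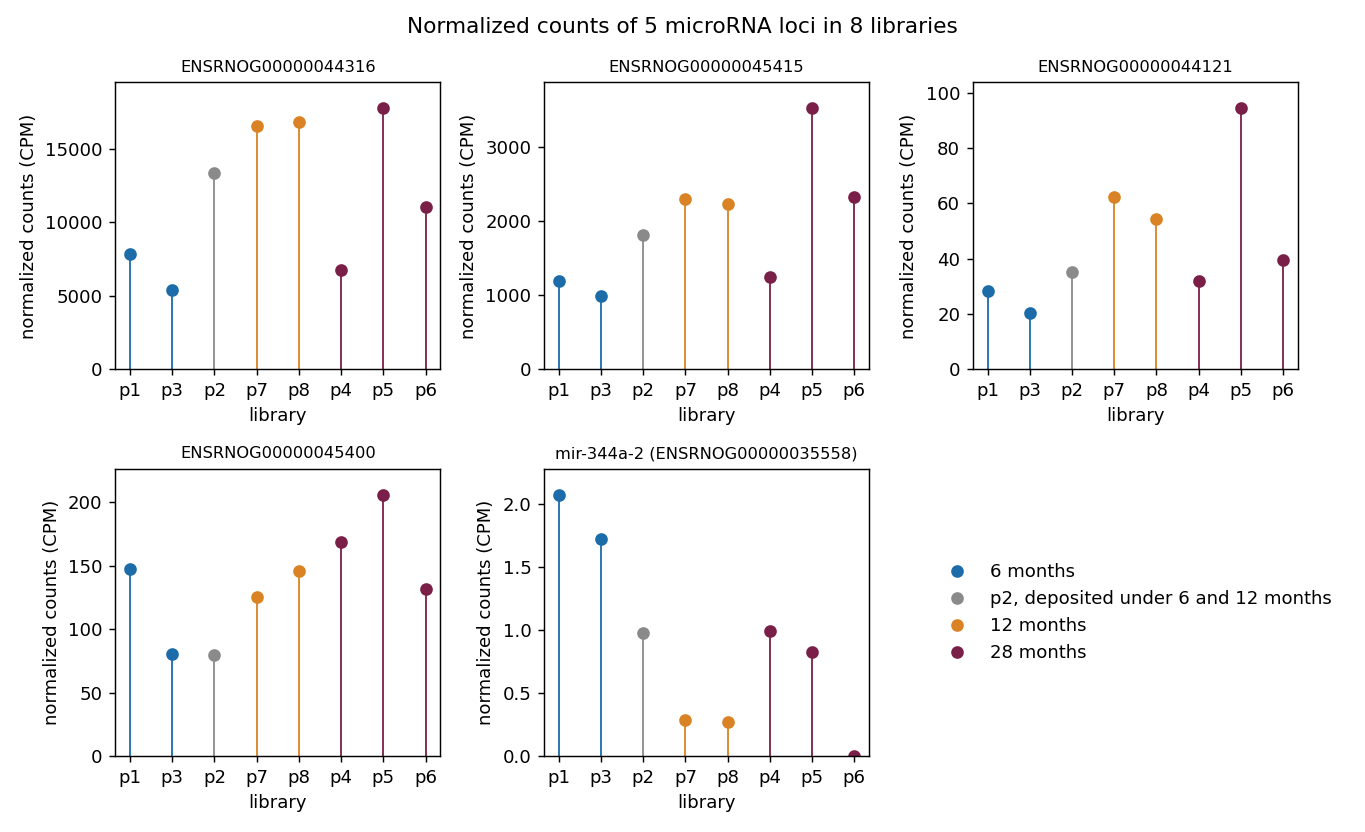
Normalized counts (CPM, linear vertical axes that start at 0 and differ between panels) of each of the 5 microRNA loci in each of the 8 independent libraries, 1 point per library, coloured by labelled age. The libraries p1, p3 and p4 are the 3 lowest for ENSRNOG00000044316, ENSRNOG00000045415 and ENSRNOG00000044121. The values of mir-344a-2, which had 0 to 19 reads per library, range from 2.07 in p1 to 0 in p6.

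Levels of different loci are not ranked here, since their lengths were not known. Within a locus, the highest library exceeded the lowest by 4.59-fold for ENSRNOG00000044121, 3.56-fold for ENSRNOG00000045415, 3.29-fold for ENSRNOG00000044316 and 2.59-fold for ENSRNOG00000045400. Libraries of 1 age differed widely as well. At 28 months the mean was 11861 ± 5522 for ENSRNOG00000044316, 2362 ± 1137 for ENSRNOG00000045415, 55.3 ± 34.0 for ENSRNOG00000044121, 169 ± 36.8 for ENSRNOG00000045400 and 0.606 ± 0.531 for mir-344a-2 (normalized counts, SD, n = 3).

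Whether the loci differed between the oldest rats and all younger ones was asked with the 3 libraries of 28 months and the 5 independent younger libraries. No microRNA locus that this comparison can test passed. The loci tested here had been chosen on a difference between the younger ages, which this comparison pools. Such a difference can add to the spread within the younger group. The lack of a call is therefore not independent of the choice and does not show that the loci were unchanged. Log2FC, given here and below as the older minus the younger age, was 0.54 for ENSRNOG00000045400 (standard error 0.23, 95% confidence interval 0.04 to 1.04, FDR 0.9997 over 16374 genes by the quasi-likelihood test of edgeR, adjusted after Benjamini and Hochberg). It was 0.47 for ENSRNOG00000045415 (interval -0.24 to 1.18), -0.01 for ENSRNOG00000044316 (-0.82 to 0.79) and -0.80 for mir-344a-2 (-2.50 to 0.90), each with an FDR of 0.9997 in the same test. Over all genes, 1 of the 16374 was called (0.00611%), namely Sult1a1, a sulfotransferase, and 376 had an unadjusted p under 0.05. ENSRNOG00000044121, whose choice had used 2 of the 3 ages compared, had a log2FC of 0.46, which became -0.17 without the library p5. Without p5 the log2FC of ENSRNOG00000045415 was 0.07 and that of ENSRNOG00000044316 was -0.42, and without p6 that of mir-344a-2 was -0.27. The interval of mir-344a-2 extends below a log2FC of -1, and those of ENSRNOG00000045400 and ENSRNOG00000045415 extend above 1.

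Between 6 and 12 months, p1 and p3 were set against p7 and p8. In this comparison 191 of 15966 genes were called (1.2%), 50 of them higher at 12 months (0.313%) and 141 lower (0.883%). ENSRNOG00000044121 was the 1 locus that had not been chosen here, and it was higher at 12 months, with a log2FC of 1.24 (standard error 0.19, interval 0.80 to 1.68, FDR 0.0185 by edgeR's quasi-likelihood test). Both of its 12-month libraries exceeded both of its 6-month libraries, and the share of all genes that do so was not counted. These 6-month libraries are also those of the comparison that chose it, so the result is not independent of the choice. With all 9 files kept under their labels, which puts p2 in both groups, the log2FC was 0.85 and the FDR 0.997, and with genes of 1 read or more all tested the FDR was 0.0582.

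The 4 loci chosen between 6 and 12 months are described for the same libraries with no test. Log2FC was 1.32 for ENSRNOG00000044316, 1.05 for ENSRNOG00000045415, 0.24 for ENSRNOG00000045400 and -2.70 for mir-344a-2. The 3 former were positive and the last was negative, and the change of ENSRNOG00000045400 was smaller than its standard error of 0.26. For mir-344a-2 the reads summed to 34 in both 6-month libraries and 4 in both 12-month libraries. The libraries p1 and p3 were deeper than p7 and p8, at 9196951 and 8700946 against 7215142 and 7310231 gene reads, and the part of depth in these differences was not tested.

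Between 6 and 28 months (p1 and p3 against p4, p5 and p6), 33 of 16042 genes were called (0.206%), 1 higher (0.00623%) and 32 lower (0.199%) at 28 months. None of the 4 loci that can be tested here passed, by edgeR's quasi-likelihood test. ENSRNOG00000045415 had a log2FC of 1.12 (standard error 0.34, interval 0.38 to 1.85, FDR 0.489), ENSRNOG00000044316 0.84 (interval 0.12 to 1.56, FDR 0.698), ENSRNOG00000045400 0.56 (interval -0.01 to 1.13, FDR 0.774) and mir-344a-2 -1.57 (interval -3.10 to -0.03, FDR 0.760). At an unadjusted p the first was at 0.00639, the second at 0.0255, the third at 0.0528 and the last at 0.0458. ENSRNOG00000044121, chosen here, had a log2FC of 1.17. These 4 loci were chosen with p1 and p3 on the 6-month side, so their values here are not independent of the choice. For ENSRNOG00000045415 the call depended on the fit. The exact test of edgeR gave an FDR of 0.0471, a filter of 1 read in any library gave 0.00231, and leaving out p4 gave a log2FC of 1.43 with an FDR of 0.00975. DESeq2 gave an FDR of 0.953 and the 9 files as labelled 0.9999, while leaving out p6 gave 0.9999 and leaving out p5 a log2FC of 0.72 with an FDR of 0.388. Leaving out p1 or p3, which leaves 1 library at 6 months, gave a log2FC of 1.26 and 0.99. ENSRNOG00000044316 had an FDR of 0.0298 with the filter of 1 read, and without p5 its log2FC was 0.43 (FDR 0.597). The log2FC of ENSRNOG00000045400 was 1.07 without p1 and 0.19 without p3, and that of mir-344a-2 was -1.04 without p6.

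Between 12 and 28 months (p7 and p8 against p4, p5 and p6), a comparison that had chosen none of the loci but reuses libraries of those that did, 19 of 15840 genes were called (0.12%), 12 higher (0.0758%) and 7 lower (0.0442%) at 28 months. All 5 loci could be tested and 0 were called by edgeR's quasi-likelihood test, by its exact test or by DESeq2, which gave mir-344a-2 no adjusted p, and 0 had an unadjusted p under 0.05 in the first of these. Log2FC was -0.48 for ENSRNOG00000044316 (interval -1.11 to 0.16, FDR 0.743), 0.07 for ENSRNOG00000045415 (-0.60 to 0.75, FDR 0.974) and -0.07 for ENSRNOG00000044121 (-0.82 to 0.69, FDR 0.979). It was 0.32 for ENSRNOG00000045400 (-0.10 to 0.75, FDR 0.740) and 1.12 for mir-344a-2 (-1.23 to 3.48, FDR 0.834). The library p4 stood below both 12-month libraries and p5 above both in each of the first 3 loci. Without p4 their log2FC was -0.19, 0.38 and 0.22, and without p5 it was -0.89 (FDR 0.0562), -0.33 (FDR 0.662) and -0.70 (FDR 0.0950). For ENSRNOG00000045400 it was 0.16 without p5, and for mir-344a-2 it was 0.60 without p4.

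**Figure D2:**
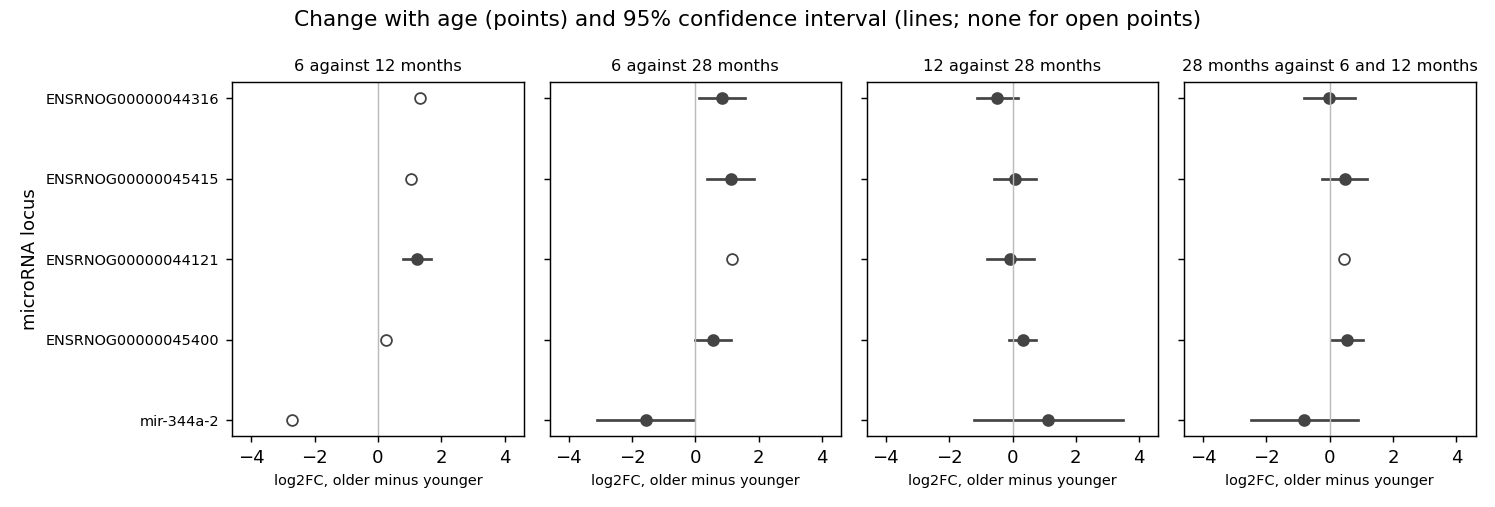
Log2FC of each of the 5 microRNA loci, older minus younger age, in the 4 comparisons, with the point at the fitted value and the line over its 95% confidence interval. Open points, drawn with no interval, mark values whose comparison had been used to choose the locus. The interval of ENSRNOG00000044121 between 6 and 12 months runs from 0.80 to 1.68, whereas each of the 5 intervals between 12 and 28 months includes 0.

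The likeness of the loci across the 8 libraries was described with Pearson's r of log2(CPM + 1), over all identifiers with a mean of at least 20 reads, which left out mir-344a-2. ENSRNOG00000044121 and ENSRNOG00000045415 had an r of 0.94, ENSRNOG00000044316 and ENSRNOG00000045415 one of 0.92, and ENSRNOG00000044121 and ENSRNOG00000044316 one of 0.90, and Spearman's rho was 0.93, 0.81 and 0.93. Among 105 identifiers with a name or a listed class, each of these 3 loci had the other 2 as its closest, followed by Pmm1 (r = 0.68), a phosphomannomutase, for ENSRNOG00000044121, by E9PSV0_RAT (r = 0.83), a complement component, for ENSRNOG00000044316, and by RGD1359529 (r = 0.83) for ENSRNOG00000045415. ENSRNOG00000045400 was closest to Sult1a1 (r = 0.65), ENSRNOG00000044121 (r = 0.61) and Nptxr (r = 0.57), a pentraxin receptor of neurons. Of all 10967 identifiers, 22, 36 and 24 had an r above 0.9 with ENSRNOG00000044121, ENSRNOG00000044316 and ENSRNOG00000045415, and 11 with ENSRNOG00000045400. The points share library, depth and normalization.

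At the other end, the named identifier least like ENSRNOG00000044316 was SNORA3, a small nucleolar RNA (r = -0.94). For ENSRNOG00000045415 and ENSRNOG00000044121 it was U2, a spliceosomal RNA (r = -0.93 and -0.88). For ENSRNOG00000045400 it was Hspa1a, a heat shock protein gene (r = -0.66). These identifiers were taken from the same lists, so the negative values are not independent of the choice either.

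The 3 loci that resembled each other were set beside 2 classes of other small RNAs taken from the same lists of differentially expressed genes and transcripts, 51 snoRNAs, which guide the modification of ribosomal and spliceosomal RNA, and 6 mitochondrial tRNAs. Their listing used these libraries too, so their counts are no independent evidence of direction. The summed normalized counts of the snoRNAs were 12733 in p1 and 10465 in p3, 3012 in p7 and 2814 in p8, and 8037 in p4, 4947 in p5 and 5621 in p6, with 4318 in p2. The 6 mitochondrial tRNAs summed to 976 and 867, to 208 and 353, and to 634, 288 and 321 in the same libraries, with 253 in p2. The libraries p1, p3 and p4 thus held the 3 highest sums of both classes and the 3 lowest values of the 3 microRNA loci. They are also the 3 libraries with the most gene reads, and the share of mapped reads that was ambiguous between genes was 0.0707 to 0.0794% in them and 0.0356 to 0.0481% in the other 5. The part of these library properties in the values was not tested.

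Among p1, p3 and p4 alone, the library of 28 months lay between those of 6 months for ENSRNOG00000044316 (6775 against 7876 and 5395) and just above both for ENSRNOG00000045415 (1246 against 1190 and 989) and ENSRNOG00000044121 (31.8 against 28.5 and 20.5). For ENSRNOG00000045400 it was also above both, at 169 against 148 and 80.7. Among the other libraries no age of 6 months is left apart from p2, so the difference between 6 and 12 months cannot be told apart from the difference between these libraries.

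**Figure D3:**
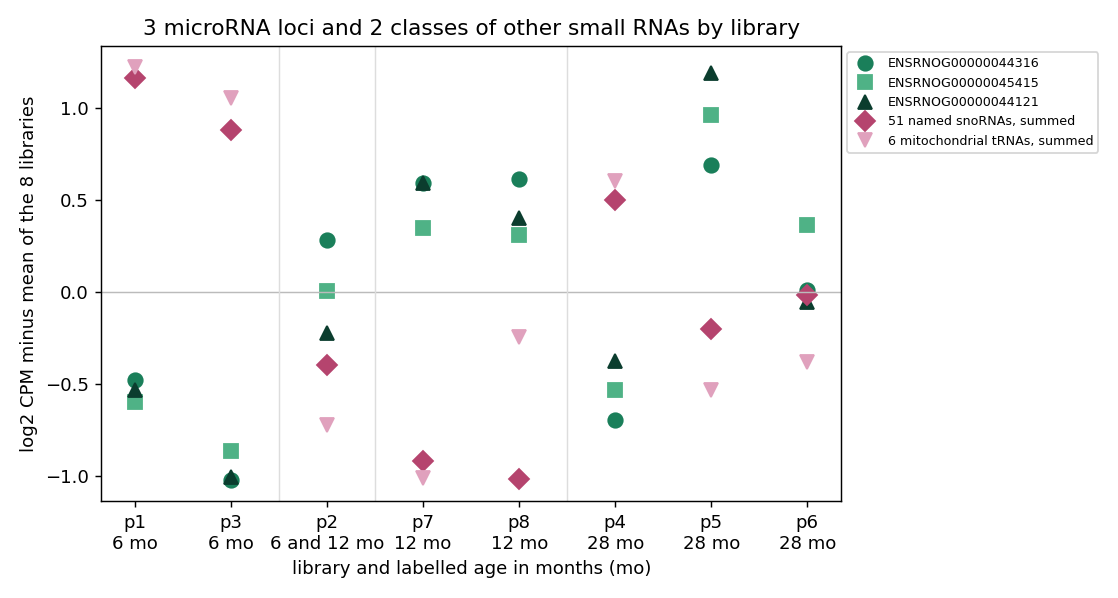
Level of 3 microRNA loci and of the summed snoRNAs and mitochondrial tRNAs in each library, as log2 CPM minus the mean over the 8 libraries, 1 point per library, with the labelled age in months. In p1, p3 and p4 the sums of both classes lie above 0 and the microRNA loci below 0.

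Both classes came from lists of genes and transcripts that differed between ages in these same libraries. Their calls are therefore not independent of that choice, and setting them beside all genes is no test of enrichment. Of the 51 snoRNAs, 36 were called lower at 12 months than at 6 months and 0 higher (FDR under 0.05, edgeR's quasi-likelihood test). Over all genes 0.883% were called lower. The log2FC was below 0 for all 51 snoRNAs, with a median of -2.04. Of the 6 mitochondrial tRNAs 5 were called lower and all 6 were below 0, with a median of -1.74. The median over all genes tested was -0.01. Between 6 and 28 months 6 snoRNAs were called lower and 46 had a log2FC below 0 (median -1.07), beside 0.199% of all genes called lower. Between 12 and 28 months 4 were called higher and 1 had a log2FC below 0 (median 1.01), beside 0.0758% of all genes called higher. The locus mir-344a-2 had the sign of the snoRNA median in each of these comparisons, at -2.70, -1.57 and 1.12, although its own change passed no test outside the comparison that chose it. The value of -2.70 is from that comparison and the others reuse its libraries, so the signs are not separate agreements. The value of 1.12 had an interval of -1.23 to 3.48.

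The reads of ENSRNOG00000044316 and ENSRNOG00000045415 were also compared within each library, a ratio that does not depend on normalization. For each read on ENSRNOG00000045415 there were 6.62 reads on ENSRNOG00000044316 in p1 and 5.45 in p3, 7.22 in p7 and 7.50 in p8, 7.36 in p2, and 5.44 in p4, 5.04 in p5 and 4.77 in p6. The 3 ratios of 28 months were the lowest of the 8, but that of p4 (95% counting interval 5.33 to 5.56) was close to that of p3 (5.33 to 5.58). Such intervals cover counting error only and leave out the spread between pools. The 6-month libraries p1 and p3 themselves lay apart, at 6.62 and 5.45. In the other ratios among the 3 similar loci, the 28-month libraries overlapped the younger ones. Reads on ENSRNOG00000045415 per read on ENSRNOG00000044121 were 39.1 in p4, 37.3 in p5 and 58.5 in p6, against 36.9 to 51.3 in younger libraries. Reads on ENSRNOG00000044316 per read on ENSRNOG00000044121 were 213, 188 and 279, against 263 to 378. The ratios were looked at after the values had been seen and were not tested between ages.

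**Figure D4:**
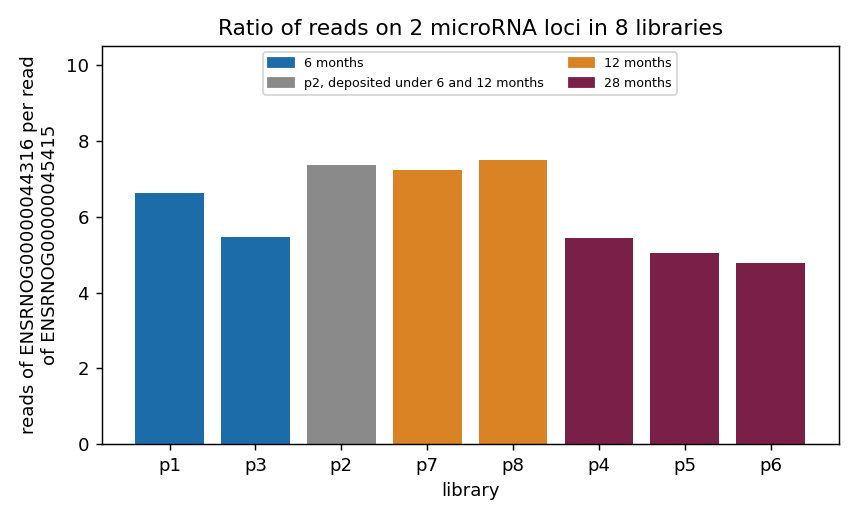
Reads on ENSRNOG00000044316 per read on ENSRNOG00000045415 in each of the 8 libraries (bars from 0), coloured by labelled age. The bars of 28 months reach 4.77 to 5.44 and those of 12 months 7.22 and 7.50, while p3 of 6 months stands at 5.45.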

How the data were processed

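The authors converted SOLiD reads, mapped them with Bowtie to rn4 and counted them per Ensembl gene with HTSeq, and the deposited files hold these raw counts. Tool versions, the strand setting and the placing of reads with several matches are not given in the sources used here. Without strand, overlapping and antisense genes cannot be told apart. Libraries are pools of 2 rats, so p-values measure the spread between pools.

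The members and lists were chosen with earlier results of these data known. Counts were scaled by TMM in edgeR 4.0.16 (R 4.3.3). Genes that reached 5 reads in any 1 of the libraries compared were tested with the quasi-likelihood test at an FDR of 0.05. Standard errors are the log2FC over the square root of F. Alternatives are described in the closing part. In simulated counts, 200 genes were changed by a log2FC of 2 in each comparison. Of these, 196 were recovered between 28 months and both younger ages, with 10 false calls. Between 6 and 12, 6 and 28, and 12 and 28 months it was 192, 191 and 195, with 13, 10 and 18 false calls. Smaller changes were not simulated, and the tested loci had log2FC values from -1.57 to 1.24. The changed genes were drawn only from those with a mean of at least 20 reads. Genes counted as low as mir-344a-2, with a mean of 7.38 reads, were thus not among them. Recovery was not split by read count. These counts therefore do not give the power of the tests of the loci.

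Named genes are the loci, the hosts of predicted microRNAs and the 3 named identifiers most like each locus. The authors' own fold changes and p-values were not used. Genes of microRNA processing are not analysed here, since the RefSeq table paired 0 Ensembl identifiers. Sequences were compared with Biopython 1.88 and folded with RNAfold 2.7.2. One gene of the marker list is not reported here.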

Additional observations from a re-analysis of the deposited data

How the results depend on the processing

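The number of DE genes depended strongly on the fit. Between 28 months and both younger ages it was 1, and 2 by edgeR's exact test and 2 by DESeq2. Between 6 and 12 months it was 191, against 462 by the exact test, 112 with genes of at least 1 read, 0 with the 9 files as labelled (485 at an unadjusted p under 0.05) and 360 to 883 when single libraries were left out. Between 6 and 28 months it was 33, against 138 by the exact test, 70 by DESeq2, 199 with genes of at least 1 read, 18 with the 9 files and 0 to 137 when single libraries were left out. Between 12 and 28 months it was 19, against 128, 82, 139 and 9 under the same settings and 0 to 142 when single libraries were left out. Without p6 the count was 0 between 6 and 28 months and between 12 and 28 months, by edgeR's quasi-likelihood test. At an unadjusted p under 0.05 there were then 549 and 870 genes. Where leaving out a library left 1 library at an age, that library was assumed to vary like the others.

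Of the log2FC values of the loci under the alternatives, 217 kept their direction and their side of the threshold or stayed within the spread of the libraries, 10 with a test changed sign, 8 with no test moved by more than that spread, 4 passed the threshold that the reported fit did not and 2 no longer passed it. Log2FC of ENSRNOG00000044316 between 28 months and both younger ages, -0.01, became 0.036 without p2 and ranged from -0.42 to 0.28 when single libraries were left out. Between 12 and 28 months that of ENSRNOG00000044121 became 0.14 with the 9 files and ranged from -0.70 to 0.22, and that of ENSRNOG00000045415 ranged from -0.33 to 0.38. Between 6 and 12 months the 9 files gave -1.62 for mir-344a-2, 0.81 for ENSRNOG00000044316 and 0.67 for ENSRNOG00000045415. Single libraries left out gave -0.13 to 0.75 for ENSRNOG00000045400 and 1.02 to 1.51 for ENSRNOG00000044121. Each of these fits left 1 library at an age, so no FDR is given for them. The cause was not tested. No paired analysis was possible because the library numbers differ between ages. With a mean of 7.38 reads, mir-344a-2 is limited by depth, and it was lost from the filter of at least 10 reads in every library.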

Other observations

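The study's lists also name 3 genes whose introns hold a predicted microRNA. Pak3, a kinase of dendritic spines, had 37.7 and 48.3 normalized counts in p1 and p3, 36.2 and 38.0 in p7 and p8, and 41.1 ± 1.68 at 28 months (SD, n = 3). Trpm3, a cation channel, had 35.3 and 45.5, 29.1 and 45.0, and 50.4 ± 3.49, with the highest value, 66.4, in the library deposited under both younger ages. RGD1311265 had 17 to 31 reads per library and 3.88 ± 0.320 normalized counts at 28 months. None of the 3 was called in any of the 4 comparisons by edgeR's quasi-likelihood test. The smallest unadjusted p was that of Trpm3 between 12 and 28 months, with a log2FC of 0.45 (standard error 0.20, FDR 0.619). The highest library exceeded the lowest by 1.86-fold for Pak3, 1.81-fold for RGD1311265 and 2.29-fold for Trpm3. The lowest value of Pak3, 26.0, was that of p2, the library deposited under both younger ages. The counts on a host gene do not measure a microRNA in its intron.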
